A study of Drosophila melanogaster with 9 samples.

Results

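The 10 salivary glue and new-glue genes described here are Sgs1, Sgs3, Sgs4, Sgs5, Sgs7 and Sgs8 (Salivary gland secretion genes) and ng1, ng2, ng3 and ng4 (new glue genes). They were taken by name from the 17187 genes and unnamed entries to which the deposited counts of whole Drosophila melanogaster larvae were summed. The series compared RNA from 3 genotypes, with 3 libraries per genotype, and its title names loss of self-tolerance and the IMD immune pathway. For each library 20 larvae were pooled, all raised at 28 °C. The control was w1118, a standard white-eyed strain. In hopTum the JAK kinase gene hopscotch has a gain-of-function allele, and tuSz1 is a second mutant strain. The labels give no larval age, instar or sex and no driver or transgene. The mutants and the control are separate strains, so differences between them cannot be credited to a single allele, and differences in larval stage and in genotype cannot be told apart. The protocols name separate biological replicates.

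The larval salivary glands of Drosophila make a glue that the animal expels at pupariation to fix the puparium to a surface. Its proteins are encoded by the Sgs genes, which are switched on in the glands in the course of the third larval instar under the steroid hormone ecdysone and the transcription factor Broad, and are shut down again when the larger ecdysone pulse before pupariation induces the early puff genes and later the L71 genes. Sgs1, Sgs3 and Sgs4 encode mucin-like proteins with long repeats that carry O-linked sugars, whereas Sgs5, Sgs7 and Sgs8 encode smaller proteins without such repeats. The ng genes were described as salivary gland genes of the chromosome puff region that also holds Sgs4, and Pig1, which is transcribed away from Sgs4 beside it, is known as a pre-intermoult gene whose transcript in the gland comes before that of Sgs4.

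In the build dm6, which the submitters' processing notes name, 5 of the 10 genes lie together on the X chromosome within 11015 bases. From left to right these are ng2 (X:3240026-3240571, minus strand), ng3 (X:3241491-3242084, minus strand), ng1 (X:3242412-3242934, plus strand), ng4 (X:3243954-3244220, minus strand) and Sgs4 (X:3250089-3251040, plus strand). Pig1 (X:3248600-3249289, minus strand) lies 799 bases from Sgs4, and ng1 and ng3 start 327 bases apart. Each of these genes has 1 exon, and all of them sit inside the span of dunce (dnc), a phosphodiesterase gene, without sharing an exon with it. Sgs8 (3L:11508967-11509394, minus strand), Sgs7 (3L:11509861-11510247, plus strand) and Sgs3 (3L:11512221-11513402, plus strand) form a second group, spanning 4436 bases on chromosome arm 3L, with 466 bases between Sgs8 and Sgs7. Sgs5 (3R:17595362-17596112, plus strand) stands beside its relative Sgs5bis on 3R, with 304 bases between them, and Sgs1 (2L:4937409-4941423, plus strand) stands alone on 2L. Every one of the 10 genes had 1 listed transcript, so no member lost reads to a second isoform. The exons of Sgs7 and Sgs8 total 321 and 359 bases and those of ng4 total 267 bases, close to the insert length that the labels' protocols give for the libraries, and Sgs1, Sgs3 and Sgs4 are repetitive. Levels of these genes, and those of the similar pairs ng1 with ng2 and Sgs5 with Sgs5bis, are therefore uncertain to the extent that reads were lost or shared.

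Total counts ranged from 9552828 to 14517286 per library. Levels are given as counts-per-million (CPM) values after TMM scaling of library sizes, on which 3 counts, the floor used here, were worth 0.2 to 0.357 CPM; intervals and floors cover counting error only. tuSz1 replicate 3 stood apart from all other libraries in the Sgs genes: it held 278 Sgs counts in all, against 589535 and 657105 in tuSz1 replicates 1 and 2. Tests of the members, and fold changes of the other genes named for one, are therefore given with all 9 libraries and without this library. Markers of fat body, midgut, muscle, nervous system, blood cells and discs were present, with Fbp1 of fat body and Hml of blood cells at 0 throughout. Of 5 salivary gland markers, sage, CrebA, PH4alphaSG1 and PH4alphaSG2 were found in every library. The gland-defining regulator fork head (fkh), with 5 listed transcripts, stayed under 1 CPM throughout. Fbp1 has 3 listed transcripts and Hml has 2. How reads shared between transcripts of a gene were counted is not given in the sources used here. Levels of genes with several listed transcripts are therefore uncertain to the extent that such reads were lost. In whole larvae, fewer gland cells and less glue RNA per gland cell cannot be told apart.

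Glue genes made up a large share of all reads in the control and a smaller one in hopTum. The 6 Sgs genes together held 5.95%, 8.42% and 7.21% of the counts in w1118 replicates 1 to 3, but 1.25%, 1.44% and 1.48% in hopTum. In tuSz1 they held 4.90% and 4.84% in replicates 1 and 2 and 0.0019% in replicate 3. The 3 hopTum libraries thus lay below all w1118 libraries, and 2 of the 3 tuSz1 libraries lay between them.

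Sgs3, a mucin-like glue protein and the Sgs gene with the most counts in w1118, had 18625, 24901 and 18578 CPM in w1118, 3450, 5027 and 2849 CPM in hopTum, and 15584, 12370 and 3.58 CPM in tuSz1. Every hopTum value was below every w1118 value. Sgs7, a small glue protein, had 12536, 11305 and 12915 CPM in w1118, 2227, 2892 and 2612 CPM in hopTum, and 14063, 17961 and 16.1 CPM in tuSz1. Sgs8, its close neighbour and relative, had 8954, 10686 and 10255 CPM in w1118, 1301, 1592 and 1620 CPM in hopTum, and 9160, 11314 and 8.58 CPM in tuSz1. For all 3 genes of the 3L group the hopTum values were low in each library and did not overlap those of w1118, while tuSz1 replicates 1 and 2 were near or above w1118 for Sgs7 and Sgs8 and below it for Sgs3. As shares of total counts, which use no TMM scaling, all 3 genes were lower in these tuSz1 libraries than in any w1118 library, Sgs7 at 1.23% and 1.51% against 1.55% to 1.72%.

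Sgs5, another glue protein without mucin repeats, had 4161, 8217 and 7552 CPM in w1118, 2566, 1979 and 2430 CPM in hopTum, and 10565, 9630 and 1.67 CPM in tuSz1. Sgs1, the largest of the mucin-like glue proteins, had 856, 1228 and 1047 CPM in w1118, 454, 625 and 399 CPM in hopTum, and 2564, 2893 and 0.238 CPM in tuSz1. Both genes were lower in each hopTum library than in any w1118 library, and higher in tuSz1 replicates 1 and 2 than in any library of the other genotypes. As a share of total counts this held for Sgs1 but not for Sgs5, which was at 0.923% and 0.812% in those tuSz1 libraries and at 0.519%, 1.12% and 1.00% in w1118. Sgs4, the X-linked mucin-like gene, had 2578, 5280 and 3846 CPM in w1118, 2619, 4421 and 2518 CPM in hopTum, and 4113, 3294 and 2.98 CPM in tuSz1. Its values in hopTum, in w1118 and in tuSz1 replicates 1 and 2 overlapped.

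**Figure D1:**
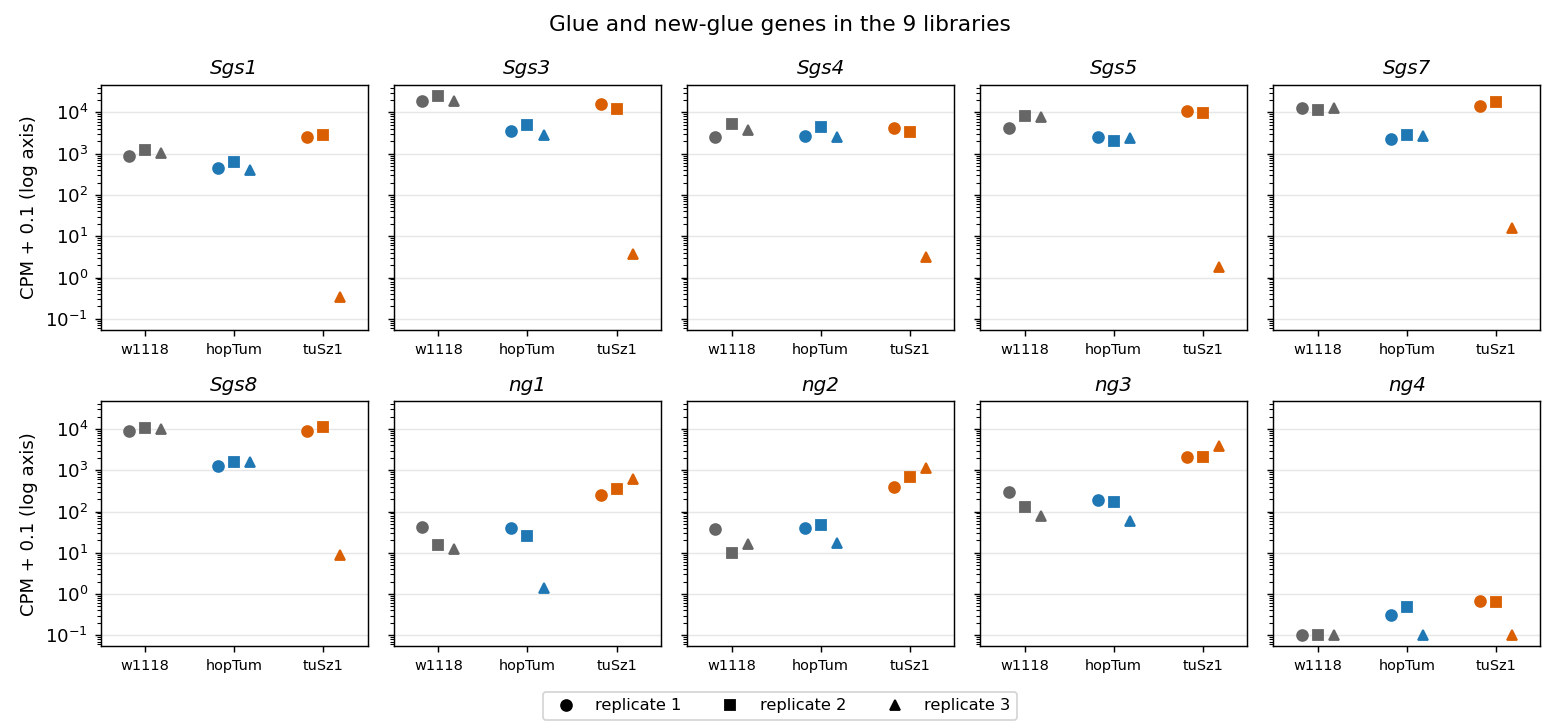
Level of each of the 10 genes in each of the 9 libraries as CPM + 0.1 on a log axis, with genotypes side by side and 1 symbol per replicate number. The 6 Sgs panels show tuSz1 replicate 3 (triangle) far below all other libraries, while the panels of ng1, ng2 and ng3 show all 3 tuSz1 libraries above the other 6.

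Between hopTum and w1118, the values of 5 of the 6 Sgs genes did not overlap and were lower in hopTum, where 18.6% of all tested genes were lower without overlap. With all 9 libraries in the fit, edgeR's quasi-likelihood test called 0 of the 9 tested members, with 18.1% of the 9106 tested genes called and 6.65% called lower. No member had an unadjusted p under 0.05, and the DESeq2 Wald test also called 0. The standard errors of the 6 Sgs log2 fold changes in that fit were 1.5 to 1.73, and tuSz1 replicate 3 entered the estimate of the spread. Without that library, 5 of the 6 Sgs genes were called lower in hopTum, against 20.9% of 9561 tested genes called and 8.26% called lower. The same count of 5 was reached in a fit of only the 6 libraries of these genotypes, in which 7.77% of tested genes were called lower.

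The sizes, from the fit without tuSz1 replicate 3, ranged from 2.12-fold to 6.62-fold among the called genes. Sgs8 fell by 2.73 on the log2 scale (SE 0.32, edgeR adjusted p = 9.73e-05) and Sgs3 fell by 2.45 (SE 0.36, edgeR adjusted p = 5.64e-04). Sgs7 fell by 2.25 (SE 0.32, edgeR adjusted p = 4.60e-04). Smaller decreases were called for Sgs5, at -1.51 (SE 0.34, edgeR adjusted p = 0.00896), and for Sgs1, at -1.08 (SE 0.30, edgeR adjusted p = 0.0233). For Sgs4 the log2 fold change was -0.29 (SE 0.36, edgeR adjusted p = 0.60), which did not pass. The median over the 6 genes was -1.88 on the log2 scale, where that of all tested genes was -0.06. None of the 3 tested ng genes was called in this comparison in either fit. Markers of other tissues moved beside the Sgs genes: the summed blood cell markers were at 190 to 530 CPM in hopTum against 125 to 154 CPM in w1118, and the testis markers at 4.60 to 16.51 against 23.2 to 30.1 CPM. With all 9 libraries, 2 of 4 tested blood cell markers (NimC1, PPO1) and 1 of 3 of fat body (Lsp1gamma) were called higher. Called lower were 2 of 4 of midgut (Mal-A1, alphaTry), 1 of 3 of discs (nub) and 1 of 2 of testis (sa). No other tested marker of these tissues was called, where 1043 and 606 of 9106 genes were called higher and lower. Over the fits that left out a library, alphaTry and nub were called in 2 of 9, sa in 3 and Lsp1gamma in 5. The part of these markers in the Sgs result was not tested.

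**Figure D2:**
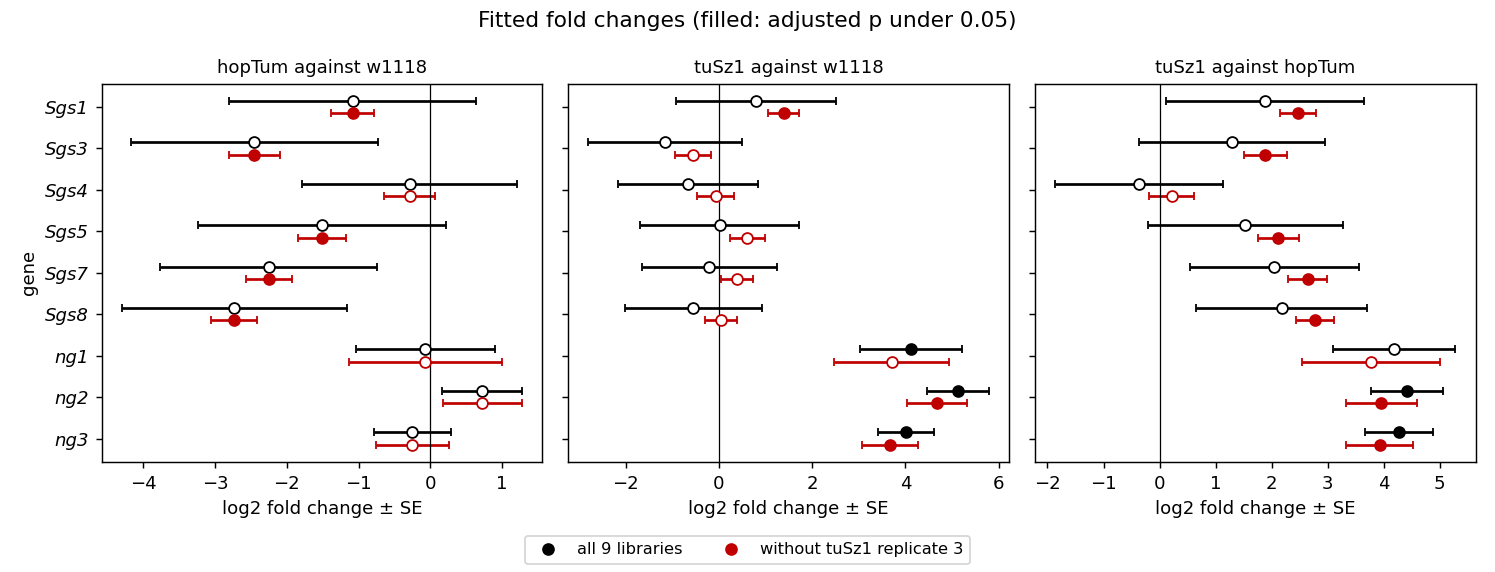
Log2 fold changes of the 9 tested members, with bars of 1 SE, for the 3 pairs of genotypes, from the edgeR fit of all 9 libraries (black) and without tuSz1 replicate 3 (red); filled symbols passed the threshold. The Sgs estimates for hopTum against w1118 hardly move between the fits while their bars shorten, and ng2 and ng3 are filled in both fits in each comparison with tuSz1.

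In tuSz1 the members called against w1118 with all libraries were ng genes. ng3, the most abundant of the new glue genes, had 293, 132 and 77.8 CPM in w1118, 192, 172 and 58.4 CPM in hopTum, and 2145, 2135 and 3848 CPM in tuSz1. ng2 had 38.5, 9.6 and 15.8 CPM in w1118, 40.04, 48.2 and 16.8 CPM in hopTum, and 401, 688 and 1141 CPM in tuSz1. ng1, which lies between ng3 and ng4, had 41.9, 14.9 and 12.02 CPM in w1118, 38.7, 25.7 and 1.32 CPM in hopTum, and 247, 354 and 597 CPM in tuSz1. For all 3 genes every tuSz1 library was above every other library, hopTum overlapped w1118, and tuSz1 replicate 3 was the highest of all. The remaining gene, ng4, was near the counting floor, with 0 counts in all w1118 libraries, 2, 4 and 0 counts in hopTum, and 6, 6 and 0 counts in tuSz1; it did not pass the filter on low counts and no fold is given.

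In tuSz1 against w1118, 3 of the 4 ng genes were higher without overlap, where 21.4% of tested genes were. Sgs3 was the only member lower without overlap, where 17.1% of tested genes were. edgeR called ng1, ng2 and ng3 higher, and no Sgs gene, among 16.3% of genes called in either direction and 9.98% called higher. ng2 rose by 5.13 on the log2 scale (SE 0.66, edgeR adjusted p = 5.03e-04), a 34.9-fold difference. ng3 rose by 4.02 (SE 0.60, edgeR adjusted p = 9.63e-04), and ng1 rose by 4.12 (SE 1.09, edgeR adjusted p = 0.0385). With total count scaling the log2 fold changes of ng2, ng3 and ng1 were smaller, at 4.27, 3.18 and 3.27, and all 3 genes were called. The call for ng1 was lost in 6 of the 9 fits that left out a library, while its log2 fold change stayed at 3.71 to 4.89. Without tuSz1 replicate 3 it was 3.71 (SE 1.23, edgeR adjusted p = 0.133). Without tuSz1 replicate 3, ng2 and ng3 remained called, at 4.68 (SE 0.65) and 3.68 (SE 0.60), while 10.6% of genes were called and 5.99% called higher. Sgs1 was then also called, at 1.39 (SE 0.33, edgeR adjusted p = 0.0166). The other Sgs genes were at -0.56 (Sgs3), -0.07 (Sgs4), 0.61 (Sgs5), 0.39 (Sgs7) and 0.04 (Sgs8), none of them passing. In tuSz1 replicates 1 and 2 alone, Sgs1, Sgs5 and Sgs7 were above all w1118 libraries and Sgs3 was below them on the TMM scale, where 28.2% of genes were higher and 21.2% lower without overlap. As shares of total counts, Sgs7 was instead below all w1118 libraries and Sgs5 overlapped them.

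Between tuSz1 and hopTum, ng2 and ng3 were called higher in tuSz1 by edgeR, among 9.66% of genes called and 5.52% called higher. Their log2 fold changes were 4.41 (SE 0.64, adjusted p = 0.00212) and 4.27 (SE 0.61, adjusted p = 0.00138), and that of ng1 was 4.19 (SE 1.09, adjusted p = 0.0519), which did not pass. Values of these 3 genes did not overlap between the mutants, where 29.1% of all genes did not, and 13.7% were higher in tuSz1. Without tuSz1 replicate 3, edgeR called 7 members higher in tuSz1, against 6.68% of genes called and 3.63% called higher. They were ng2, ng3 and 5 Sgs genes, led by Sgs8 at 2.77 (SE 0.34, adjusted p = 4.63e-04) and Sgs7 at 2.64 (SE 0.34, adjusted p = 7.51e-04). Sgs1 was at 2.47 (SE 0.33), Sgs5 at 2.12 (SE 0.37) and Sgs3 at 1.89 (SE 0.38). Sgs4, at 0.22 (SE 0.40, adjusted p = 0.769), was not called here either. The values of the 5 called Sgs genes did not overlap between these libraries, where 22.3% of genes were higher in tuSz1 without overlap. The comparisons share libraries, so that their estimates are not independent of each other.

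Set against each other, the glue and new-glue genes gave a balance in tuSz1 that did not overlap that of the other genotypes. There were 128, 394 and 513 Sgs counts per ng count in the w1118 libraries, 46.6, 67.0 and 163 in hopTum, and 20.1, 18.1 and 0.0059 in tuSz1. The tuSz1 libraries had the lowest values, and hopTum overlapped w1118 through its replicate 3. The share of ng counts was 0.0141% to 0.0466% of all counts in w1118. It was 0.0091% to 0.0268% for hopTum and 0.244% to 0.323% for tuSz1.

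**Figure D3:**
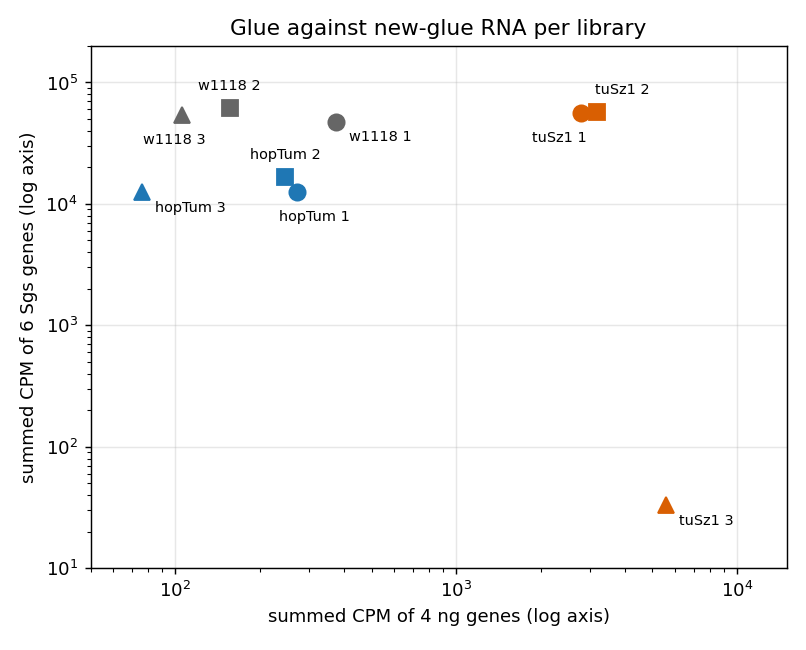
Summed CPM of the 6 Sgs genes against summed CPM of the 4 ng genes in each library, both on log axes, coloured by genotype. tuSz1 replicates 1 and 2 have Sgs sums of 56049 and 57462 CPM, close to the 47711 to 61617 CPM of w1118, at ng sums of 2794 and 3178 CPM against 106 to 373 CPM; tuSz1 replicate 3 has the highest ng sum, 5585 CPM, with an Sgs sum of 33.1 CPM.

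In tuSz1 replicate 3 the glue genes were nearly missing while the new glue genes were present. Compared with the mean of tuSz1 replicates 1 and 2, Sgs5 was 6053-fold lower (95% counting interval 3608 to 11072) and Sgs3 was 3910-fold lower (2739 to 5795). Sgs4, Sgs8 and Sgs7 were 1243-fold, 1193-fold and 995-fold lower. Sgs1 was seen in 2 counts, a ratio of 11449 with an interval from 3169 to 94535. ng1, ng2 and ng3 were 1.99, 2.09 and 1.80 times the mean of the other libraries of that genotype on the TMM scale. As shares of total counts, which use no TMM scaling, the excess was smaller. ng1 was at 0.0345% in replicate 3 against 0.0215% and 0.0298% in replicates 1 and 2. ng2 was at 0.0659% against 0.0351% and 0.0580%, and ng3 at 0.222% against 0.187% and 0.180%. The total of this library, 14517286 counts, was the highest of the 9, while its effective size after TMM scaling, 8392662, was the lowest. Its summed CPM of 5 muscle markers was 123517, against 37241 and 51713 in tuSz1 replicates 1 and 2, and that of the fat body markers was 194727 against 74273 and 115551. On the TMM scale the summed salivary gland markers were at 294 CPM, between the 328 and 272 CPM of the other tuSz1 libraries. CrebA at 154 CPM and PH4alphaSG1 at 105 CPM were its largest terms. These sums, those of muscle and fat body included, rest on the TMM factor of this library, 0.5785, the lowest of the 9. In raw counts CrebA was at 1290 in replicate 3 against 1882 and 1455 in replicates 1 and 2, and PH4alphaSG1 at 884 against 792 and 816. Within that list sage, a gland regulator, was at 17.8 CPM against 60.4 and 58.0 CPM. In w1118 sage had 28.7, 41.6 and 13.6 CPM and in hopTum 26.8, 10.4 and 24.2 CPM, so that 17.8 CPM lay inside both ranges on the TMM scale. The part of the muscle, fat body and sage levels in the result was not tested.

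The neighbours of the ng genes on the X chromosome were also higher in tuSz1. Pig1, the pre-intermoult gene between ng4 and Sgs4, had 21.0, 20.7 and 16.9 CPM in w1118, 34.9, 34.8 and 25.6 CPM in hopTum, and 462, 378 and 473 CPM in tuSz1. All tuSz1 values were above all others, tuSz1 replicate 3 included. With all libraries, Pig1 rose in tuSz1 by 4.48 on the log2 scale against w1118 (SE 0.27, edgeR adjusted p = 1.41e-06) and by 3.79 against hopTum (SE 0.26, edgeR adjusted p = 1.79e-05), and without tuSz1 replicate 3 by 4.43 and 3.73. It was at 0.70 in hopTum against w1118 (SE 0.24, edgeR adjusted p = 0.0625), which did not pass. CG14265, a protein-coding gene to the left of ng2, had 316, 425 and 181 CPM in w1118, 343, 178 and 343 CPM in hopTum, and 2077, 1924 and 1286 CPM in tuSz1. It rose by 2.52 in tuSz1 against w1118 (SE 0.41, edgeR adjusted p = 0.0016), and by 2.71 without tuSz1 replicate 3. The host gene dnc had 13.6 to 31.1 CPM in the 9 libraries, below ng3 in each of them. Sgs4, at the right end of the cluster, was not called in tuSz1 in either fit. There were 123 to 255 Sgs4 counts per Pig1 count in w1118 and 75.0 to 127 for hopTum, but 8.91 and 8.71 in tuSz1 replicates 1 and 2 and 0.0063 in replicate 3.

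**Figure D4:**
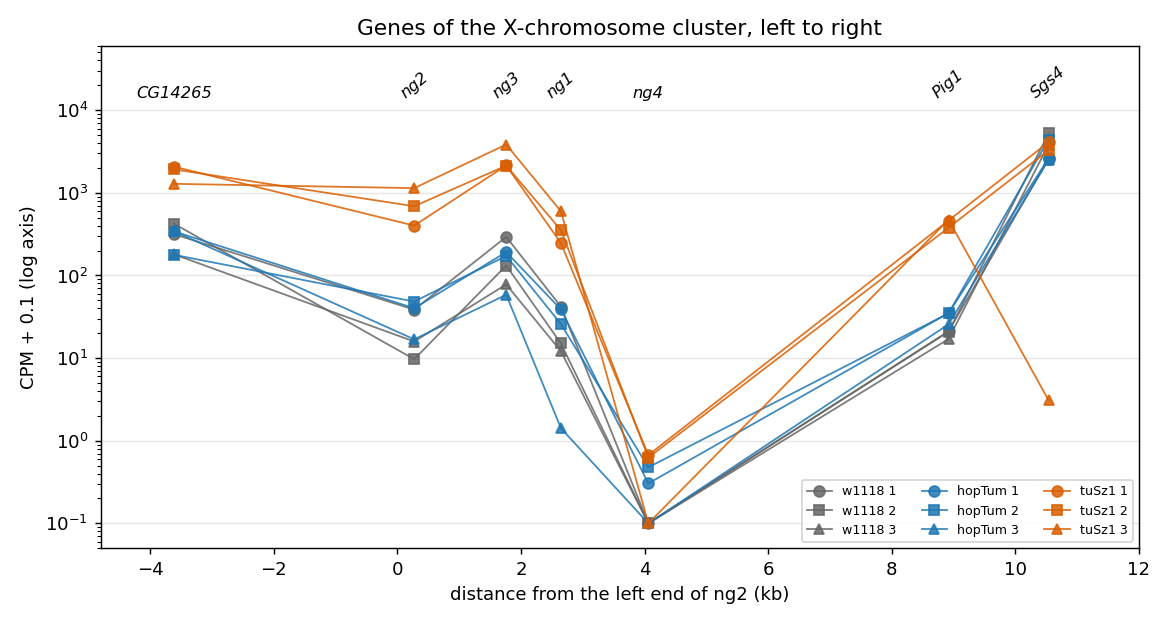
CPM + 0.1 on a log axis of 7 genes of the X-chromosome cluster, placed by distance in kb from the left end of ng2, with 1 line per library coloured by genotype. The 3 tuSz1 lines run above the others from CG14265 to ng1 and again at Pig1, ng4 is near 0 in every library, and at Sgs4 only tuSz1 replicate 3 leaves the group, at 2.98 CPM.

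Per kilobase of exon, the order of the glue genes in w1118 was Sgs7 (38168 CPM per kb), Sgs8 (27758), Sgs3 (18667), Sgs5 (10445) and Sgs4 (4098), with no overlap between neighbours in that order. ng3 (282 CPM per kb) and Sgs1 (264) followed and overlapped, then ng1 (43.9) and ng2 (39.0), which overlapped as well, and ng4 at 0. In hopTum, Sgs7 was again first at 8027 CPM per kb, but Sgs8 (4190), Sgs5 (3655), Sgs3 (3404) and Sgs4 (3346) each overlapped the next. In tuSz1 replicates 1 and 2, ng3 reached 3603 CPM per kb, within the 3461 to 4321 of Sgs4, and ng2 (998) stood above Sgs1 (691).

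The mixture of glue transcripts was compared within each library, which needs no scaling between libraries. Sgs4 made up 5.40% to 8.57% of Sgs counts in w1118, 20.3% to 26.7% in hopTum, and 7.34% and 5.73% in tuSz1 replicates 1 and 2. Sgs3 made up 34.3% to 40.4%, 22.9% to 30.4%, and 27.8% and 21.53% in the same order. In tuSz1 replicate 3, with 278 Sgs counts, Sgs4 made up 8.99% and Sgs3 10.8%. For every 100 Sgs3 counts there were 13.8, 21.2 and 20.7 Sgs4 counts in w1118, 75.9, 87.9 and 88.4 in hopTum, and 26.4 and 26.6 in tuSz1 replicates 1 and 2. In tuSz1 replicate 3 there were 83.3, inside the hopTum range, from 25 Sgs4 and 30 Sgs3 counts. The hopTum values were 4.60 times those of w1118 and did not overlap them. The exact two-sided permutation test gave p = 0.1, the smallest that 3 against 3 libraries allow, and 0.1 after Benjamini-Hochberg adjustment over 3 such ratios. Sgs7 counts per 100 Sgs8 counts were 106 to 140 in w1118 and 161 to 182 in hopTum, with the same exact p of 0.1. They were 154, 159 and 187.5 in tuSz1, also above every w1118 library, the last from 135 Sgs7 and 72 Sgs8 counts. Sgs5bis is a relative of Sgs5. There were 53.3 to 184 Sgs5bis counts per 100 Sgs5 counts in w1118 and 12.8 to 29.2 in hopTum, with the same exact p of 0.1. In tuSz1 replicates 1 and 2 there were 11.1 and 12.6. In tuSz1 replicate 3 there were 100, inside the w1118 range, from 14 counts of each gene. Sgs5bis was not called in any comparison with all 9 libraries, and without tuSz1 replicate 3 it fell by 3.95 in hopTum (SE 0.54, edgeR adjusted p = 3.41e-04) and fell by 2.85 in tuSz1 (SE 0.60, edgeR adjusted p = 0.00924) against w1118.

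The other genes of the gland were taken from a list of regulators and enzymes. Of its 7 genes, 6 were tested. With all libraries 1 was called higher in hopTum against w1118 and 3 in tuSz1 against w1118, and none lower. In the same fit 1043 and 909 of all 9106 tested genes were called higher. Without tuSz1 replicate 3 the counts higher were the same, and 1 gene, pip, was called lower in hopTum, at -1.0 (SE 0.30, edgeR adjusted p = 0.0342). The medians of the 6 were -0.25 and 1.40 on the log2 scale, where those of all genes were -0.05 and 0.08. PH4alphaSG1, a gland prolyl hydroxylase, had 10.9, 11.7 and 6.01 CPM in w1118, 9.91, 8.29 and 7.02 CPM in hopTum, and 75.3, 71.4 and 105 CPM in tuSz1, so that tuSz1 did not overlap the others. It rose in tuSz1 by 3.14 against w1118 (SE 0.34, edgeR adjusted p = 1.11e-04), and by 2.95 without tuSz1 replicate 3. The sulfotransferase gene pipe (pip) rose by 3.11 (SE 0.48, edgeR adjusted p = 0.00128), with its highest level, 218 CPM, in tuSz1 replicate 3; without that library it rose by 2.23 (SE 0.33, edgeR adjusted p = 8.34e-04). PH4alphaSG2, a second gland hydroxylase, rose in both mutants against w1118, by 2.01 in hopTum (SE 0.40, edgeR adjusted p = 0.00601) and by 2.11 in tuSz1 (SE 0.41, edgeR adjusted p = 0.00471), and by 2.01 and 2.03 without tuSz1 replicate 3. The regulators sage and CrebA were not called in any comparison, and sage had 60.4, 58.0 and 17.8 CPM in tuSz1 and 10.4 to 41.6 CPM in the libraries of w1118 and hopTum. The sum of the 5 gland markers ranged over 123 to 178 CPM in w1118, 153 to 175 CPM for hopTum and 272 to 328 CPM for tuSz1. On the TMM scale every tuSz1 library was above every w1118 library in this sum. The same held for the sums of fat body (74273 to 194727 CPM against 11834 to 23240 CPM in w1118), midgut (39049 to 64942 against 14368 to 26345 CPM) and muscle markers (37241 to 123517 against 5609 to 19415 CPM). With total count scaling edgeR called 2 of 4 tested gland markers higher, 1 of 3 of fat body, 0 of 4 of midgut and 0 of 5 of muscle. There 433 of 9106 genes were called higher. The medians of these lists were then 0.65, 1.78, 0.7 and 1.69 on the log2 scale, where that of all genes was -0.7. On the TMM scale without tuSz1 replicate 3, 1 of 4 tested markers of fat body, 1 of 4 of midgut and 0 of 5 of muscle were called higher, where 573 of 9561 genes were. Act57B and Mlc2 made up most of the muscle sum, with 78787 and 44692 CPM in tuSz1 replicate 3, where Mhc, up and Tm2 had 8.82, 22.5 and 6.32 CPM. The part of these tissues in the ng result was not tested. In hopTum, where Sgs genes were low, the sum of the gland markers lay inside the w1118 range on the TMM scale. Its largest term there was CrebA, at 99.0 to 133 CPM, and it held PH4alphaSG2, which was called higher. The median of the 4 tested gland markers in hopTum against w1118 was -0.02 on the TMM scale. With total count scaling it was -0.4, where that of all genes was -0.41. Of 6 genes of glue glycosylation and secretion, 4 were tested and edgeR called 0 in each of the 3 comparisons, with 1, 1 and 2 genes at an unadjusted p under 0.05 for hopTum and tuSz1 against w1118 and for tuSz1 against hopTum. DESeq2 called 1, Rab11, in hopTum against w1118.

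The later gland genes gave another pattern. The L71 genes encode small secreted peptides of the late puff at 71E, of which 10 were listed and 5 passed the filter. By edgeR all 5 were called lower in hopTum and all 5 lower in tuSz1, each against w1118, with and without tuSz1 replicate 3. Of all tested genes, 606 and 576 of 9106 were called lower with all libraries, and 790 and 437 of 9561 without that library. With all libraries DESeq2 called 4 of the 5 in each mutant against w1118, all but Eig71Ed. Between the mutants edgeR called 0, with 1 at an unadjusted p under 0.05, and DESeq2 called 0. Eig71Ea had 93.1, 199.5 and 105 CPM in w1118, 2.04, 1.13 and 2.28 CPM in hopTum, and 4.28, 3.50 and 0 CPM in tuSz1. Eig71Ea fell by 6.18 in hopTum (SE 0.96, edgeR adjusted p = 0.00298) and fell by 5.64 in tuSz1 (SE 0.93, edgeR adjusted p = 0.0041), with log2 fold changes of -6.18 and -5.08 without tuSz1 replicate 3. The other 4 were at or near the counting floor in both mutants. With those at most 3 counts over a genotype set to that floor, the median L71 fold was at least 127-fold lower in hopTum and at least 122-fold lower in tuSz1. Their summed level was 119 to 343 CPM in w1118, highest in replicate 2, and 0 to 4.85 CPM in the mutants, so L71 RNA was low in all 6 mutant libraries, whether or not Sgs RNA was.

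Among 16 ecdysone receptor and response genes, 12 were tested. Called lower were 6 in hopTum and 7 in tuSz1 against w1118, and none higher, while the medians were -1.25 and -1.92. Of all 9106 tested genes, 606 and 576 were called lower. Without tuSz1 replicate 3, 13 of the 16 were tested and 6 and 5 were called lower, against 790 and 437 of all 9561 tested genes. Broad (br), a transcription factor needed for glue gene activity, had 619, 628 and 899 CPM in w1118, 263, 310 and 407 CPM in hopTum, and 144, 79.8 and 95.7 CPM in tuSz1. These 3 sets did not overlap. br fell by 1.13 in hopTum (SE 0.31, edgeR adjusted p = 0.0284) and fell by 2.75 in tuSz1 (SE 0.33, edgeR adjusted p = 2.25e-04) against w1118, with -1.13 and -2.67 without tuSz1 replicate 3. The hopTum call of br held in 5 of the 9 fits that left out a library, at -1.32 to -0.93. The nuclear receptor genes Eip75B and Eip78C fell in both mutants as well, with log2 fold changes of -1.26 and -2.48 for Eip75B and of -2.67 and -6.50 for Eip78C. Without tuSz1 replicate 3 these were -1.25 and -2.71, and -2.66 and -6.47, and the hopTum call of Eip75B held in 6 of the 9 fits. Between the mutants 3 genes of the list were called lower in tuSz1, where 377 of all 9106 tested genes were. br was at -1.61 there and at -1.54 without tuSz1 replicate 3, both called. Eip78C was at -3.83 and, without tuSz1 replicate 3, at -3.81 (SE 0.97, edgeR adjusted p = 0.0575), the only one of the 9 fits that lost its call. Eip75B was at -1.22 (SE 0.34, edgeR adjusted p = 0.0416), a call that held in 2 of those fits, at -1.45 to -0.92. EcR, the ecdysone receptor gene, was called at -1.25 and -1.36 against w1118, calls that held in 2 and 4 of the 9 fits; without tuSz1 replicate 3 the tuSz1 value was -1.08 (SE 0.38, edgeR adjusted p = 0.0915). Hr3, a hormone-induced receptor gene, was at 2.07 to 3.46 CPM in w1118 and at 0 to 0.188 CPM in the mutants. Hr3 and EcR have 6 listed transcripts each and br has 14, so their levels carry the limit named above for genes with several listed transcripts. Of the fat body storage protein genes, Lsp1gamma rose in hopTum by 2.16 (SE 0.55, edgeR adjusted p = 0.0188) and in tuSz1 by 3.25 (SE 0.57, edgeR adjusted p = 0.00281), and by 2.17 and 2.82 without tuSz1 replicate 3. Its hopTum call held in 5 of the 9 fits, at 1.74 to 2.65. None of 4 cuticle genes, Lcp1 to Lcp4, was called by edgeR, with at most 1 at an unadjusted p under 0.05 in a comparison, whereas DESeq2 called Lcp1 in hopTum and Lcp4 in tuSz1 against w1118, and none of 3 prepupal cuticle genes passed the filter.

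**Figure D5:**
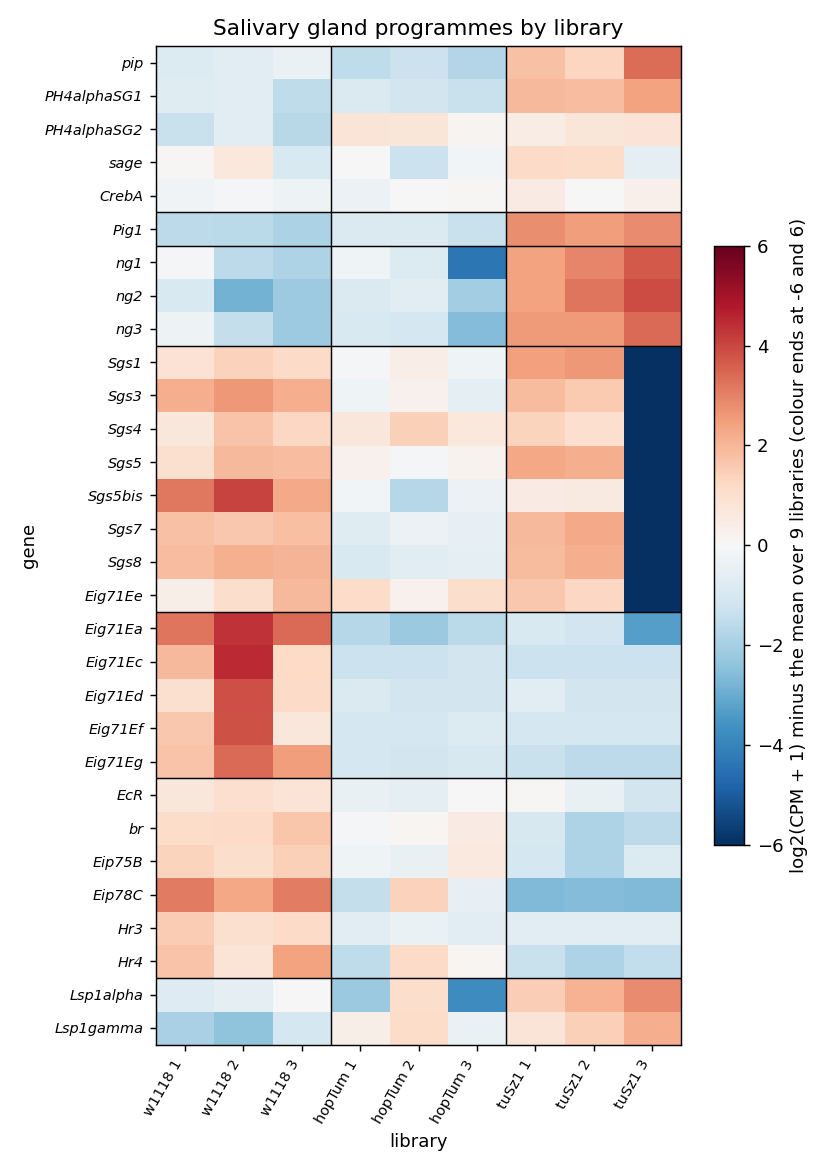
Gland, neighbour, glue, L71, ecdysone response and storage protein genes (rows) in the 9 libraries (columns), as log2(CPM + 1) minus the gene's mean over the libraries; colours end at -6 and 6. The Sgs rows and Eig71Ee are at the lower end in tuSz1 replicate 3 only, the ng and Pig1 rows are high in all tuSz1 libraries, and the L71 rows are high in w1118 only.

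Profiles over the 9 libraries were compared across 5972 genes by Pearson's r of log2(CPM + 1), given as a description of libraries that share genotype and depth. The gene most like the mean of the 6 Sgs genes was Eig71Ee (r = 0.969), which encodes a mucin-like glue component of the 71E region, followed by Cpr78E, a cuticle protein gene (0.956), CG13843 (0.95), Adgf-E (0.928), CG7634 (0.927) and CG14000 (0.926). These values rested on tuSz1 replicate 3: without it they were 0.428, 0.498, 0.612, 0.58, 0.578 and -0.365. Those most like the mean of ng1, ng2 and ng3 were CG31464 (0.989), CG18744 (0.986), dob (0.986), Vha100-4 (0.985), CG44040 (0.983) and Cyp4d8 (0.981), and without that library they were 0.986, 0.993, 0.981, 0.978, 0.98 and 0.973. CG31464 had 18.9 to 29.6 CPM in w1118, 10.3 to 28.0 CPM in hopTum, and 132, 157 and 190 CPM in tuSz1. Vha100-4, a subunit of the vacuolar proton pump, had 18.2 to 50.4 CPM, 13.4 to 34.2 CPM, and 114, 98.0 and 184 CPM in the same order. In both genes, tuSz1 did not overlap the other genotypes and hopTum replicate 3 was the lowest library, as it was for ng1 and ng3. Both were picked for their likeness to the ng mean over these same libraries, so that this shared pattern was largely fixed by the choice.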

How the data were processed

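The files hold raw read counts per RefSeq transcript, 1 file per library, as deposited. Per the submitters' processing notes, FastQC 0.11.8, HISAT2 2.1.0 and featureCounts 1.6.3 were used with the build dm6; their settings, the strand setting and the annotation release are not given in the sources used here. Of 34111 entries per file, 33766 were found in a RefSeq gene table by accession and version and 146 by accession alone, and the 199 left over carried 0.421% of all counts. Transcripts of a gene were added up. Positions came from a dm6 annotation.

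edgeR 4.0.16 in R 4.3.3 fitted all 9 libraries with 1 coefficient per genotype, using TMM scaling, edgeR's standard low-count filter, the robust quasi-likelihood test, and Benjamini-Hochberg adjustment over 9106 tested genes at 0.05. Standard errors were derived from the fold change and its F statistic. The fit was tested on simulated data. Named genes are the 10 members, the genes of listed programmes that were called or define their list, and the 6 genes most like each mean profile, among those with a mean of at least 5 CPM; CG14265 and dnc were added as neighbours. The members and lists were chosen with earlier results of these data known. Further steps ran in Python 3.11.15 (pandas 2.3.3, numpy 2.4.6) and plots in matplotlib 3.10.9. The alternatives were other scalings, other filters, DESeq2 1.42.0, fits of 6 libraries, a block for replicate number, and each library left out.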

Additional observations from a re-analysis of the deposited data

How the results depend on the processing

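The number of members called in hopTum against w1118 was 0 with all libraries and 5 in the fit of only the 6 libraries compared, and ran from 0 to 5 over the fits that left out a library, reaching 5 without tuSz1 replicate 3. In tuSz1 against hopTum the 2 calls ran from 2 to 7, with 7 without tuSz1 replicate 3, and in tuSz1 against w1118 the 3 calls ran from 2 to 3. The calls of ng2 and ng3 in tuSz1 held under all 17 alternatives against both genotypes.

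The replicate number did not pair the libraries: deviations of same-numbered libraries correlated at -0.434 to 0.209, and 0 of 9 libraries correlated best with their own number. With it as a block, members called were 0 in hopTum against w1118, 2 in tuSz1 against w1118 and 2 in tuSz1 against hopTum, and all genes called were 1131, 986 and 504, against 1649, 1485 and 880. Under the block ng1 was at 4.57 in tuSz1 against w1118 (edgeR adjusted p = 0.0648).

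All genes called ran from 823 to 1999, from 786 to 1701 and from 507 to 891 over the fits that left out a library, in the same order. In tuSz1 against hopTum they numbered 1408 with total count scaling and 1341 with DESeq2. Under total count scaling the all-gene medians were -0.41, -0.70 and -0.39 on the log2 scale, against -0.05, 0.08 and 0.03, and the genes called higher and lower were 486 and 810, 433 and 1749, and 389 and 1019, against 1043 and 606, 909 and 576, and 503 and 377.

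Signs reversed for some estimates that were not called. Over the fits that left out a library, ng1 and ng3 in hopTum against w1118 ran from -0.77 to 0.70 and from -0.59 to 0.43, positive without w1118 replicate 1 or hopTum replicate 3. Sgs5 in tuSz1 against w1118 ran from -0.45 to 0.61, and Sgs7, Sgs8 and, against hopTum, Sgs4 from -0.80 to 0.39, -1.12 to 0.04 and -0.94 to 0.22, with the highest value of each without tuSz1 replicate 3. Sgs5, at 0.02, was at -0.04 with DESeq2 size factors and the DESeq2 Wald test, -0.61 with total count scaling, -0.08 without a filter, -0.11 at a mean count of 50, -0.33 under the replicate block and -0.10 in the fit of 6 libraries. The cause was not tested.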

Other observations

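A search made after the values were seen asked which other genes were missing from tuSz1 replicate 3. Of 1189 genes at 100 CPM or more in both other tuSz1 libraries, 8 were at least 100-fold lower in replicate 3: the 6 Sgs genes, Sgs5bis and Eig71Ee. The 6 Sgs genes were known to be nearly missing there before the search, so their place among the 8 was fixed in advance. The same search found 0 genes in each of the other 8 libraries, out of 912 to 1309 genes that could have met it. In the opposite direction, 0 of 1594 genes at 100 CPM or more in tuSz1 replicate 3 were at least 100-fold lower in both other tuSz1 libraries. Sgs5bis, the relative of Sgs5, had 1171 and 1209 CPM in tuSz1 replicates 1 and 2 and 1.67 CPM in replicate 3. Eig71Ee had 5910, 4656 and 3.81 CPM, 1386-fold lower in replicate 3 (95% counting interval 982 to 2026). The count of 8 depends on the 100-fold cut. The cuticle protein gene Cpr78E, with 623, 1107 and 11.7 CPM in tuSz1, also fell in replicate 3 but did not reach it.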
